A study of Mus musculus with 10 samples.

Results

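The cell cycle and DNA replication module is a set of 46 mouse genes that dividing cells switch on: the loaders and subunits of the replicative helicase, the enzymes that make DNA precursors, cyclins and their kinases, and the proteins of the mitotic spindle and its checkpoint. Its members are named by gene symbol. They were read from the array probes annotated to them in the newer annotation of the files, where Cdk1 stands under the older name Cdc2a and Cdc45 under Cdc45l. They took 75 of the 41143 probes used and 46 of the 19056 genes tested, and every member was well above background on all 10 arrays. The study measured total RNA from the ileum, the last segment of the small intestine, of C57BL/6 mice aged 6 to 8 weeks on 10 one-colour Agilent arrays, with 2 arrays in each of 5 groups. In a TetON mouse, doxycycline (DOX) binds the transactivator rtTA, which then drives a transgene behind a tetracycline-responsive promoter; the sources used here do not name the promoter that drives rtTA. Sox2 +DOX mice carried the inducible Sox2 transgene, Sox2xOct4 +DOX mice carried the Sox2 and the Oct4 transgenes, and Oct4 +DOX mice carried the Oct4 transgene. The rtTA +DOX controls lacked the TetOP-Sox2 transgene. All of these drank 2 mg/ml DOX with 1% sucrose for 2 days. Sox2 -DOX mice had the TetON-Sox2 genotype and were left untreated, so a comparison with them holds transgene induction, DOX and sucrose together.

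A dividing cell first loads the MCM helicase on replication origins, then fires those origins under cyclin-dependent kinases, copies its DNA, and later builds a spindle whose checkpoint holds the chromosomes until all are attached. Many genes of the replication step are targets of E2F transcription factors, while genes of the late G2 and mitotic step often carry a CHR element near a CCAAT box and are repressed by the DREAM complex in resting cells. In the small intestine most dividing cells are the stem and transit-amplifying cells of the crypts, and the villus enterocytes they give rise to no longer divide. The arrays measured bulk tissue, in which fewer cells of a type and less RNA per cell cannot be told apart.

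Values are log2 of the background-subtracted signal relative to the 75th percentile of the same array, so 0 is that percentile; a level is read within a probe across arrays and never between probes. Replicate correlations over all genes were 0.959 to 0.984, and detection well above background held for 64.2% to 71.2% of probes. Whether replicate arrays stand for separate mice is not stated in the labels. Each p-value thus measures only the spread between these samples, which may be technical in the groups other than Oct4 +DOX. The 2 Oct4 +DOX arrays differed in sex-linked RNA, as given below, so they are not repeats of 1 mouse. Slide 1 carried the 4 TetON-Sox2 arrays, slide 2 those of rtTA +DOX and Sox2xOct4 +DOX, and slide 3 those of Oct4 +DOX; in comparisons across slides the slide and the group cannot be told apart. Pou5f1, which encodes Oct4, read 2.64 and 0.92 in Sox2xOct4 +DOX and 6.20 and 4.79 in Oct4 +DOX, against -9.28 to -7.97 on the 6 other arrays. The Sox2 probe stayed at background on all 10 arrays and checks no label. The Y-linked gene Eif2s3y was high on the TetON-Sox2 arrays and on Oct4 +DOX replicate 1 (1.61 to 2.10) and low on the others (-9.23 to -7.86), and Xist, which is transcribed from the inactive X chromosome, was low on the first of these (-8.18 to -6.01) and high on the others (2.62 to 3.89). Sex-linked RNA was thus alike within Sox2 +DOX against Sox2 -DOX and within Sox2xOct4 +DOX against rtTA +DOX. It differed on every array between the groups of Sox2 +DOX against rtTA +DOX, Sox2xOct4 +DOX against Sox2 +DOX and rtTA +DOX against Sox2 -DOX, where sex-linked RNA, slide and group cannot be told apart, and between the 2 Oct4 +DOX arrays.

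The module was highest on 1 array of each transgenic DOX group. All 46 members were higher on replicate 1 than on replicate 2 in Sox2 +DOX (median difference 1.40), in Sox2xOct4 +DOX (1.40) and in Oct4 +DOX (1.12). In the rtTA +DOX controls 2 of 46 members were higher on replicate 1 (median difference -0.89), and in Sox2 -DOX mice 14 of 46 were (-0.11). Over all 19056 genes tested, replicate 1 was the higher array for 48.2% in Sox2 +DOX, 43.7% in Sox2xOct4 +DOX, 47.8% in Oct4 +DOX, 41.2% in rtTA +DOX and 46.9% in Sox2 -DOX. The replicate number marks no shared day or litter in the labels, so its agreement across groups is a description of these arrays. In every DOX group the gap was wide for many members: 38 differed by more than 1 on the log2 scale in Sox2 +DOX, 34 in Sox2xOct4 +DOX, 28 in Oct4 +DOX and 15 in rtTA +DOX. In Sox2 -DOX 1 member, Ccne2, did. Of all genes 15.9%, 23.9%, 16.7%, 9.49% and 8.25% differed by that much in these 5 groups, in the same order.

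With each member centred on its mean over the 10 arrays, the median member stood at 1.32 and -0.02 on the Sox2 +DOX arrays, 0.98 and -0.47 on the Sox2xOct4 +DOX arrays, 0.43 and -0.69 on the Oct4 +DOX arrays, -0.80 and 0.11 on the rtTA +DOX arrays and -0.36 and -0.31 on the Sox2 -DOX arrays, replicate 1 first here and in every pair that follows. Sox2 +DOX replicate 1 was the highest array for 37 members and Sox2xOct4 +DOX replicate 1 for the other 9. The lowest array was rtTA +DOX replicate 1 for 19 members, Oct4 +DOX replicate 2 for 13, Sox2 +DOX replicate 2 for 6 and Sox2xOct4 +DOX replicate 2 for 5. The other 3 members were lowest on 3 further arrays.

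**Figure D1:**
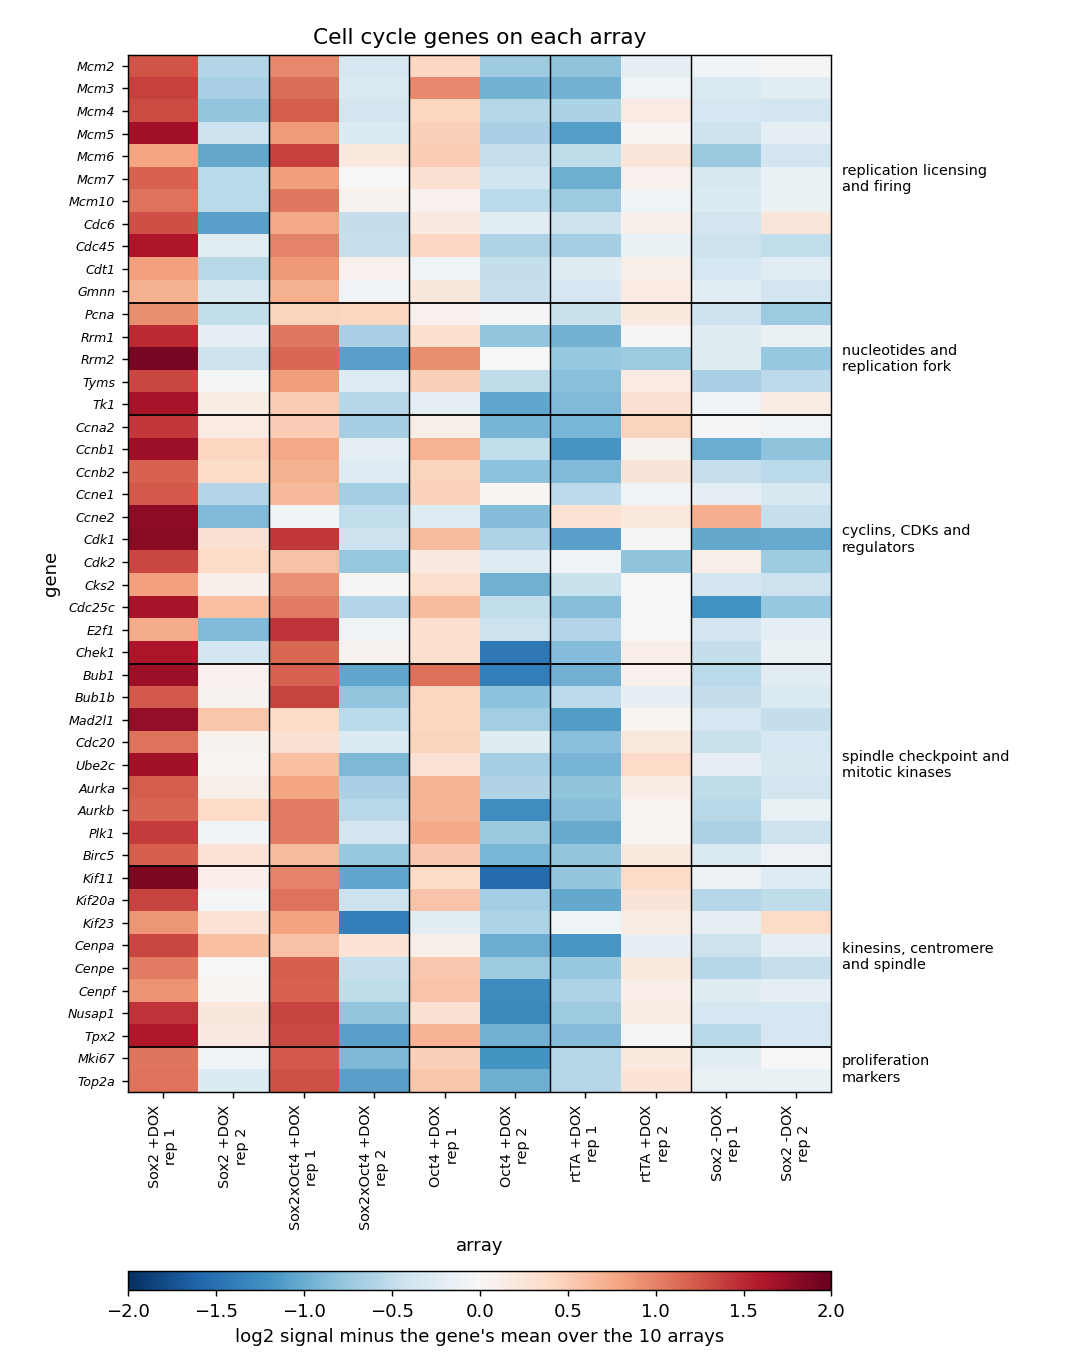
Level of each of the 46 members (rows, ordered by role) on each of the 10 arrays (columns, in the order Sox2 +DOX, Sox2xOct4 +DOX, Oct4 +DOX, rtTA +DOX and Sox2 -DOX), in log2 units centred on the member's mean over the arrays. The replicate 1 columns of the 3 transgenic DOX groups stand above their replicate 2 columns for all 46 members.

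Induction of Sox2 within TetON-Sox2 mice lay on 1 slide, and here all 46 members had higher mean values in Sox2 +DOX than in Sox2 -DOX ileum. The log2 changes ran from 0.17 for Cdc6 to 2.11 for Cdc25c with a median of 0.93, against a median of -0.10 over all genes, of which 45.1% were higher. No member was called at an adjusted p under 0.05 by limma with Benjamini-Hochberg adjustment, where 7.83% of all genes were called. At an unadjusted p under 0.05, 5 of 46 members were higher and none lower, a share near the 11.5% of all genes that were higher at that level. For 25 of 46 members (54.3%) both Sox2 +DOX arrays lay above both Sox2 -DOX arrays, which held for 29.8% of all genes, and for no member did both lie below, which held for 36.6% of all genes. Without Sox2 +DOX replicate 1 the median change was 0.25, and without Sox2 +DOX replicate 2 it was 1.62. The median standard error was 0.67 over the members, against 0.39 over all genes.

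For 21 members more than 1 probe was kept. Their 26 further probes had the sign of the probe used for 25 in this comparison, with Cdc6 the exception (0.17 and -0.23), and for 24 in Sox2xOct4 +DOX against rtTA +DOX, with Cenpe (0.65 and -0.41) and Cenpf (0.58 and -0.10) the exceptions.

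The single arrays differed by role. Sox2 +DOX replicate 1 was above both Sox2 -DOX arrays for 46 of 46 members, against 38.7% of all genes. Sox2 +DOX replicate 2 was above both for 25 members, against 36.8% of all genes, and below both for 13, against 44.3%. Of those 13, 9 were among the 11 licensing genes, 3 among the 11 cyclin and CDK genes and 1 was Top2a. On this array all 9 checkpoint and mitotic kinase genes and 7 of 8 spindle and centromere genes lay above both Sox2 -DOX arrays.

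**Figure D2:**
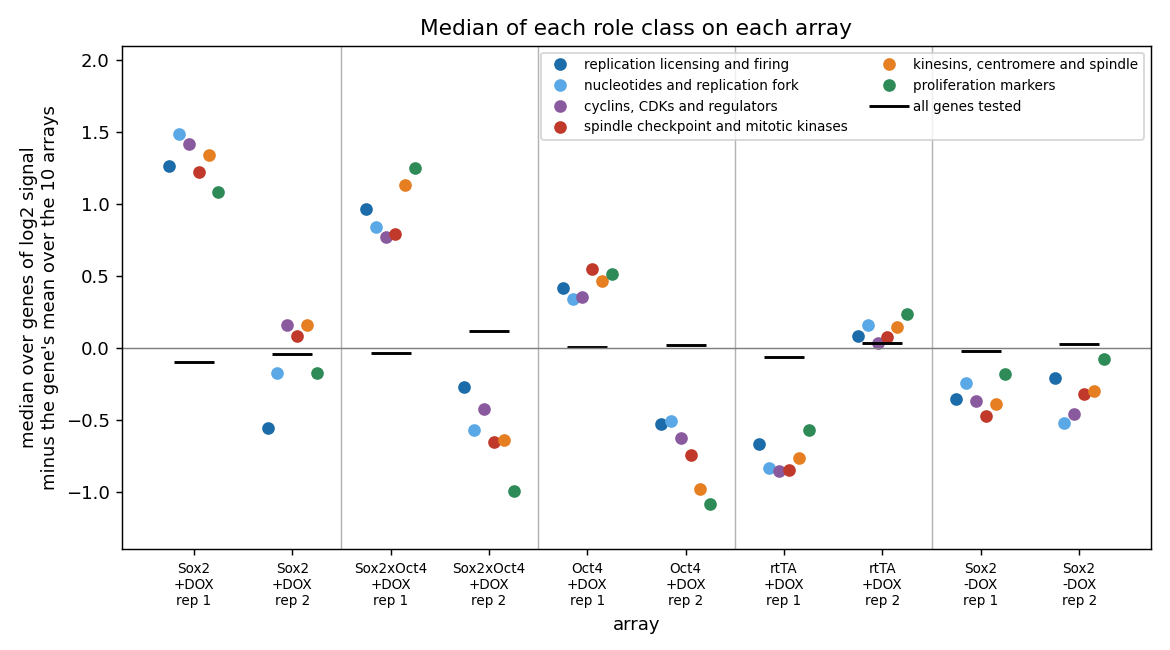
Median over the members of each role class of the level on each array, in log2 units centred on each member's mean over the 10 arrays, with the groups from left to right in the order Sox2 +DOX, Sox2xOct4 +DOX, Oct4 +DOX, rtTA +DOX and Sox2 -DOX. On Sox2 +DOX replicate 2 the licensing class stood at -0.56 and the spindle and centromere class at 0.16, while on Sox2 +DOX replicate 1 they stood at 1.26 and 1.34.

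Promoters of some members that behaved differently on Sox2 +DOX replicate 2 are shown as examples, not as the rule, to let their motifs be compared. They are RefSeq sequences of build GRCm38.p6, from 250 bases before to 50 bases after the gene start, 5′ to 3′ on the gene's strand, for 2 helicase genes (Mcm6, chr1:128359656-128359955, minus strand, and Mcm5, chr8:75109259-75109558, plus strand), a mitotic cyclin and a mitotic kinase (Ccnb2, chr9:70421505-70421804, minus strand, and Plk1, chr7:122159185-122159484, plus strand) and the kinase that mitotic cyclins activate (Cdk1, chr10:69352863-69353162, minus strand). Capitals mark matches on either strand to the CHR element (TTTGAA or the variant form TTCGAA), the CCAAT box, or the E2F site (TTTCCCGC, TTTGGCGC, TTTCGCGC or TTTGCCGC), and where E2F matches on opposite strands overlap the capitals run on as 1 stretch.
Mcm6: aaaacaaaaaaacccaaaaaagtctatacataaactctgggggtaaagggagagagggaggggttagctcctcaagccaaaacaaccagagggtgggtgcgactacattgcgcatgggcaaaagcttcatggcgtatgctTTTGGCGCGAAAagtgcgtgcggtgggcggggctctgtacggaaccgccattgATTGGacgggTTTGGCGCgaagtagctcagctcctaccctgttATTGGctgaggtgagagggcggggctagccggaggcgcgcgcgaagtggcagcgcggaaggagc
Mcm5: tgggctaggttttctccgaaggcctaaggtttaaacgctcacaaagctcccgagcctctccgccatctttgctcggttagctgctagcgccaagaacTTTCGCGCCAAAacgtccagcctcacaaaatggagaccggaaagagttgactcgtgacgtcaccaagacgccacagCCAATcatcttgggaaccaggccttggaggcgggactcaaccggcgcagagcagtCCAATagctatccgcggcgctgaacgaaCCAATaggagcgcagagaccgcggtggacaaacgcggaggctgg
Ccnb2: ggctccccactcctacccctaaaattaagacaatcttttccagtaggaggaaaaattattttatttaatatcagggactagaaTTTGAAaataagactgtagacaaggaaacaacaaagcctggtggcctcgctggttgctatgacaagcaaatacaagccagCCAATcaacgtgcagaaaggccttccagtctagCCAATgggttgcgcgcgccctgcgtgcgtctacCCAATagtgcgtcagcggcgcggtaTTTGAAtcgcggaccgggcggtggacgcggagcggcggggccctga
Plk1: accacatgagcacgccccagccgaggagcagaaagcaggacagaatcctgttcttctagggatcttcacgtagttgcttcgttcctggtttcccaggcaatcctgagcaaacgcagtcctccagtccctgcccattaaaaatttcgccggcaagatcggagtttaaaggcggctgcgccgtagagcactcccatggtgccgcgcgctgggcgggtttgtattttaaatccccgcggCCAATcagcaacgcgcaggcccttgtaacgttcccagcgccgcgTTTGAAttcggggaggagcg
Cdk1: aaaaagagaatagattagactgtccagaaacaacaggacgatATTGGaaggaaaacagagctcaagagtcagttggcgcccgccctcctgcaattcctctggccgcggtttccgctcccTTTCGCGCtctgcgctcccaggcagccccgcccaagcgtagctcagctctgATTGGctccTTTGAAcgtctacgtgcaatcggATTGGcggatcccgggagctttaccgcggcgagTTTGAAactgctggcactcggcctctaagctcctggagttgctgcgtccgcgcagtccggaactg
Mcm6 and Mcm5 carry E2F and CCAAT matches and no CHR match, Ccnb2 and Plk1 carry CHR and CCAAT matches and no E2F match, and Cdk1 carries all 3 kinds. A match is a description of the letters and not a shown binding site.

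Of the 46 members 38 had a promoter in the table used. A member was counted once, with a match in any of its promoters, whereas the shares of all promoters count each promoter by itself. An E2F match stood in 8 of these 38 (21.1%), against 2.26% of all 32851 promoters of the same length, and a CHR match in 17 (44.7%), against 19.2%. CCAAT stood in 28 (73.7%), against 37.4%. All 17 promoters with a CHR match also held CCAAT, a pair found in 7.52% of all promoters. E2F matches lay in 6 of 9 licensing promoters, in 2 of 8 cyclin and CDK promoters, and in none of the 5 fork, 8 checkpoint, 6 spindle or 2 marker promoters. CHR matches lay in 6 of 8 checkpoint and mitotic kinase promoters, 4 of 6 spindle promoters, 3 of 9 licensing promoters (Mcm2, Mcm7 and Cdc45), 2 of 8 cyclin and CDK promoters, both marker promoters and none of the 5 fork promoters.

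On Sox2 +DOX replicate 2, the 6 members with an E2F and no CHR match (Cdc6, Cdk2, Cdt1, Mcm3, Mcm5 and Mcm6) had a median of -0.33 relative to the Sox2 -DOX mean, with 5 below both Sox2 -DOX arrays and Cdk2 above both. Of the 5, Mcm5 lay below only narrowly (1.798, against 1.807 on Sox2 -DOX replicate 1). The 15 with CHR and CCAAT and no E2F match had a median of 0.32, with 11 above both and 2, Mcm2 and Top2a, below both. The 15 with neither an E2F nor a CHR match, among them the mitotic genes Mad2l1, Birc5 and Ccnb1, had a median of 0.11, with 7 above both and 3 below both, and the 2 with both matches, Cdk1 and Mcm7, lay 1 above and 1 below. On Sox2 +DOX replicate 1 the medians were 1.48 for the E2F class, 1.64 for the CHR class and 1.62 for the class with neither. On Sox2xOct4 +DOX replicate 2, set against the rtTA +DOX mean, the order was the other way: 0.18 for the E2F class and -0.32 for the CHR class, with -0.0036 for the class with neither. These classes overlap with the roles, and their separate part in the levels was not tested.

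Among the 11 licensing and origin-firing genes, the MCM2 to MCM7 subunits form the helicase ring, Cdc6 and Cdt1 load it, Gmnn (geminin) inhibits Cdt1, and Mcm10 and Cdc45 act when origins fire. Mcm6 (probe at chr1:130159147-130159206, build mm8) read 5.03 and 3.21 in Sox2 +DOX, 5.61 and 4.44 in Sox2xOct4 +DOX, 4.75 and 3.78 in Oct4 +DOX, 3.74 and 4.49 in rtTA +DOX, and 3.51 and 3.86 in Sox2 -DOX. Its lowest array was thus a Sox2 +DOX array, and its groups overlapped in every comparison. Mcm4 (chr16:15537857-15537916) read 4.71 and 2.61 in Sox2 +DOX, 4.60 and 3.03 in Sox2xOct4 +DOX, 3.83 and 2.83 in Oct4 +DOX, 2.76 and 3.56 in rtTA +DOX, and 3.05 and 3.02 in Sox2 -DOX. Sox2 +DOX replicate 2 was again its lowest array. Gmnn (chr13:24759448-24759507) read 4.96 and 3.93 in Sox2 +DOX, 4.96 and 4.20 in Sox2xOct4 +DOX, 4.48 and 3.80 in Oct4 +DOX, 3.91 and 4.42 in rtTA +DOX, and 4.03 and 3.87 in Sox2 -DOX. On Sox2 +DOX replicate 2 geminin lay between the untreated arrays, whereas 9 of the other licensing genes lay below both.

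In Sox2 +DOX against Sox2 -DOX the licensing class had a median change of 0.50, from 0.17 for Cdc6 to 1.17 for Cdc45, which was its only member with both Sox2 +DOX arrays above both Sox2 -DOX arrays. Relative to the Sox2 -DOX mean, the class stood at 1.35 on Sox2 +DOX replicate 1 and at -0.33 on replicate 2, where Mcm2, Mcm3, Mcm4, Mcm5, Mcm6, Mcm7, Mcm10, Cdc6 and Cdt1 lay below both untreated arrays. Mcm5 did so only narrowly. In Sox2xOct4 +DOX against rtTA +DOX all 11 had higher means, with a median change of 0.81 that was the highest of the 6 classes. There the class stood at 1.39 on Sox2xOct4 +DOX replicate 1 and at 0.16 on replicate 2, and Mcm10 had both Sox2xOct4 +DOX arrays (3.42 and 2.44) above both rtTA +DOX arrays (1.64 and 2.28).

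The 5 genes of nucleotide supply and the fork include Pcna, the sliding clamp of the DNA polymerases, Rrm1 and Rrm2, the subunits of ribonucleotide reductase, and Tyms and Tk1, which make thymidylate. Pcna (chr2:131941125-131941262) read 5.13 and 3.71 in Sox2 +DOX, 4.65 and 4.63 in Sox2xOct4 +DOX, 4.29 and 4.17 in Oct4 +DOX, 3.75 and 4.39 in rtTA +DOX, and 3.78 and 3.46 in Sox2 -DOX. Both Sox2xOct4 +DOX arrays lay close together and above both rtTA +DOX arrays, whereas Sox2 +DOX replicate 2 lay between the untreated arrays. Tyms (chr5:30391852-30391911) read 4.30 and 2.92 in Sox2 +DOX, 3.79 and 2.70 in Sox2xOct4 +DOX, 3.42 and 2.45 in Oct4 +DOX, 2.12 and 3.11 in rtTA +DOX, and 2.31 and 2.43 in Sox2 -DOX. It was the member of this class with both Sox2 +DOX arrays above both untreated arrays. Rrm1 (chr7:102342530-102342590) read 3.93 and 2.27 in Sox2 +DOX, 3.50 and 1.80 in Sox2xOct4 +DOX, 2.79 and 1.66 in Oct4 +DOX, 1.50 and 2.47 in rtTA +DOX, and 2.20 and 2.31 in Sox2 -DOX. Its Sox2 +DOX replicate 2 lay between the untreated arrays. The class had a median change of 0.86 in Sox2 +DOX against Sox2 -DOX and 0.63 in Sox2xOct4 +DOX against rtTA +DOX, and its range was 0.80 to 1.24 in the first and 0.26 to 0.78 in the second.

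The 11 cyclins, CDKs and their regulators split by the phase they serve. Ccnb1, Ccnb2, Ccna2 and Cdk1 form the kinases of S phase, G2 and mitosis, Cks2 is a small subunit of those kinases and Cdc25c is the phosphatase that activates Cdk1. Ccne1 and Ccne2 with Cdk2 drive entry into S phase, E2f1 activates replication genes and Chek1 is the checkpoint kinase that answers stalled forks. Cdk1 (chr10:68738032-68740441) read 2.27 and 0.77 in Sox2 +DOX, 1.88 and 0.05 in Sox2xOct4 +DOX, 1.10 and -0.15 in Oct4 +DOX, -0.62 and 0.50 in rtTA +DOX, and -0.56 and -0.54 in Sox2 -DOX. Both Sox2 +DOX arrays were above every control array, with a log2 change of 2.07 ± 0.75 (SE) against Sox2 -DOX, which limma did not call (adjusted p = 0.127).

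Ccnb1 (chr13:101879936-101879995) read 1.43 and 0.14 in Sox2 +DOX, 0.49 and -0.48 in Sox2xOct4 +DOX, 0.41 and -0.78 in Oct4 +DOX, -1.47 and -0.21 in rtTA +DOX, and -1.28 and -1.09 in Sox2 -DOX. The Sox2 +DOX arrays did not overlap the controls, and the log2 change against Sox2 -DOX was 1.97 ± 0.63 (limma adjusted p = 0.094). Cdc25c, on chromosome 18, read -1.21 and -2.25 in Sox2 +DOX, -1.82 and -3.44 in Sox2xOct4 +DOX, -2.23 and -3.35 in Oct4 +DOX, -3.71 and -2.86 in rtTA +DOX, and -4.07 and -3.61 in Sox2 -DOX. It had the largest log2 change of the 46 members in that comparison, 2.11 ± 0.64, and the smallest adjusted p, 0.083 by limma. Ccnb2 (chr9:70207028-70207087) read 4.70 and 3.90 in Sox2 +DOX, 4.24 and 3.28 in Sox2xOct4 +DOX, 3.98 and 2.71 in Oct4 +DOX, 2.64 and 3.78 in rtTA +DOX, and 3.07 and 2.997 in Sox2 -DOX. Both Sox2 +DOX arrays again lay above all 4 control arrays, the lower of them narrowly.

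Ccna2 (chr3:36756605-36756664) read 4.10 and 2.84 in Sox2 +DOX, 3.17 and 2.03 in Sox2xOct4 +DOX, 2.80 and 1.76 in Oct4 +DOX, 1.76 and 3.13 in rtTA +DOX, and 2.65 and 2.61 in Sox2 -DOX. Cks2 (chr13:51663025-51663084) read 4.75 and 4.02 in Sox2 +DOX, 4.83 and 3.94 in Sox2xOct4 +DOX, 4.27 and 2.95 in Oct4 +DOX, 3.47 and 3.93 in rtTA +DOX, and 3.56 and 3.48 in Sox2 -DOX. Cks2 was 1 of the 4 members with both Sox2xOct4 +DOX arrays above both rtTA +DOX arrays, narrowly so for replicate 2. In Sox2 +DOX against Sox2 -DOX, 7 of the 11 genes had non-overlapping arrays: Ccna2, Ccnb1, Ccnb2, Cdk1, Cdk2, Cks2 and Cdc25c. Ccne1, Ccne2 and E2f1 had their Sox2 +DOX replicate 2 below both untreated arrays, and Chek1 had it between them. The class median was 0.92 in that comparison and 0.66 in Sox2xOct4 +DOX against rtTA +DOX. Ccne2 was the exception in the second: it read -2.15 and -2.59 in Sox2xOct4 +DOX, against -1.80 and -1.88 in rtTA +DOX, both lower.

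The 9 genes of the spindle checkpoint, the anaphase-promoting complex and the mitotic kinases were the class with the fewest exceptions in Sox2 +DOX against Sox2 -DOX: all 9 had both Sox2 +DOX arrays above both Sox2 -DOX arrays, with log2 changes from 0.94 for Birc5 to 1.56 for Mad2l1 and a median of 1.10. Mad2l1, which carries the checkpoint signal from unattached kinetochores, read 1.72 and 0.52 in Sox2 +DOX, 0.37 and -0.57 in Sox2xOct4 +DOX, 0.40 and -0.73 in Oct4 +DOX, -1.14 and 0.01 in rtTA +DOX, and -0.39 and -0.51 in Sox2 -DOX. Its change was 1.56 ± 0.60 against Sox2 -DOX (limma adjusted p = 0.139), and only the Sox2 +DOX arrays both lay above every control array.

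Birc5 (survivin, a subunit of the Aurora B complex; chr11:117671735-117671794) read 5.86 and 4.95 in Sox2 +DOX, 5.30 and 3.92 in Sox2xOct4 +DOX, 5.21 and 3.74 in Oct4 +DOX, 3.88 and 4.86 in rtTA +DOX, and 4.38 and 4.55 in Sox2 -DOX. Cdc20 (an activator of the anaphase-promoting complex; chr4:117930863-117930922) read 4.67 and 3.66 in Sox2 +DOX, 3.89 and 3.31 in Sox2xOct4 +DOX, 4.03 and 3.34 in Oct4 +DOX, 2.75 and 3.79 in rtTA +DOX, and 3.14 and 3.23 in Sox2 -DOX. Aurka (the centrosomal Aurora kinase; chr2:172047439-172047498) read 4.45 and 3.37 in Sox2 +DOX, 4.04 and 2.59 in Sox2xOct4 +DOX, 3.92 and 2.65 in Oct4 +DOX, 2.44 and 3.39 in rtTA +DOX, and 2.73 and 2.88 in Sox2 -DOX. For all 3, both Sox2 +DOX arrays stood above both Sox2 -DOX arrays, and the rtTA +DOX arrays spread wider than the Sox2 -DOX arrays did. In Sox2xOct4 +DOX against rtTA +DOX the same 9 genes all had higher means (median 0.47, from 0.13 to 0.81), and none had non-overlapping arrays. On Sox2xOct4 +DOX replicate 2 alone their median was -0.32 relative to the rtTA +DOX mean. The other members of the class are Bub1 and Bub1b (checkpoint kinases), Aurkb (the chromosomal passenger kinase), Plk1 (a kinase of mitotic entry) and Ube2c (the ubiquitin-conjugating enzyme of the anaphase-promoting complex).

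The 8 motor, centromere and spindle genes had a median change of 1.18 in Sox2 +DOX against Sox2 -DOX, from 0.47 for Kif23 to 1.34 for Tpx2, and 7 of 8 had non-overlapping arrays; Kif23, the motor of the central spindle, did not. Cenpa (the histone H3 variant of centromeres; chr5:30950937-30950996) read 1.84 and 1.10 in Sox2 +DOX, 1.08 and 0.77 in Sox2xOct4 +DOX, 0.61 and -0.49 in Oct4 +DOX, -0.66 and 0.34 in rtTA +DOX, and 0.07 and 0.32 in Sox2 -DOX. Cenpa was the member whose transgenic arrays stood clear in most comparisons. Both Sox2 +DOX arrays and both Sox2xOct4 +DOX arrays lay above all 4 control arrays, with changes of 1.27 ± 0.48 for Sox2 +DOX against Sox2 -DOX (limma adjusted p = 0.140) and 1.09 ± 0.48 for Sox2xOct4 +DOX against rtTA +DOX (limma adjusted p = 0.217).

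Cenpe (a kinetochore motor; chr3:135210810-135210869) read 4.22 and 3.19 in Sox2 +DOX, 4.39 and 2.73 in Sox2xOct4 +DOX, 3.73 and 2.46 in Oct4 +DOX, 2.43 and 3.38 in rtTA +DOX, and 2.61 and 2.72 in Sox2 -DOX. Kif20a (a motor of cytokinesis, on chromosome 18) read 3.69 and 2.31 in Sox2 +DOX, 3.44 and 1.92 in Sox2xOct4 +DOX, 2.92 and 1.67 in Oct4 +DOX, 1.33 and 2.60 in rtTA +DOX, and 1.78 and 1.84 in Sox2 -DOX. Cenpf (a kinetochore protein; chr1:191342843-191342902) read 2.54 and 1.68 in Sox2 +DOX, 2.82 and 1.14 in Sox2xOct4 +DOX, 2.22 and 0.37 in Oct4 +DOX, 1.03 and 1.77 in rtTA +DOX, and 1.40 and 1.46 in Sox2 -DOX. Against Sox2 -DOX the Sox2 +DOX arrays of these 3 genes did not overlap, while against rtTA +DOX replicate 2 the Sox2 +DOX replicate 2 array was the lower for each. The class median was 0.58 in Sox2xOct4 +DOX against rtTA +DOX, where Kif23 had a lower mean (-0.31). Kif11, Nusap1 and Tpx2, which build and hold spindle microtubules, complete the class.

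For the 2 general proliferation markers the groups overlapped in every comparison. Mki67 (the Ki-67 antigen of cycling cells; chr7:135528251-135528310) read 5.12 and 3.96 in Sox2 +DOX, 5.27 and 3.14 in Sox2xOct4 +DOX, 4.51 and 2.85 in Oct4 +DOX, 3.46 and 4.24 in rtTA +DOX, and 3.82 and 4.03 in Sox2 -DOX. Top2a (DNA topoisomerase II alpha; chr11:98812020-98812834) read 1.43 and 0.07 in Sox2 +DOX, 1.62 and -0.74 in Sox2xOct4 +DOX, 0.90 and -0.63 in Oct4 +DOX, -0.22 and 0.61 in rtTA +DOX, and 0.20 and 0.21 in Sox2 -DOX. In both genes replicate 2 of Sox2xOct4 +DOX and of Oct4 +DOX lay below all 4 control arrays. Their log2 changes in Sox2 +DOX against Sox2 -DOX were 0.62 and 0.55, and the smaller of their limma adjusted p-values was 0.642. The size depended on the probe: the 2 further Top2a probes had changes of 0.06 and 0.18, and the further Mki67 probe one of 0.75.

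**Figure D3:**
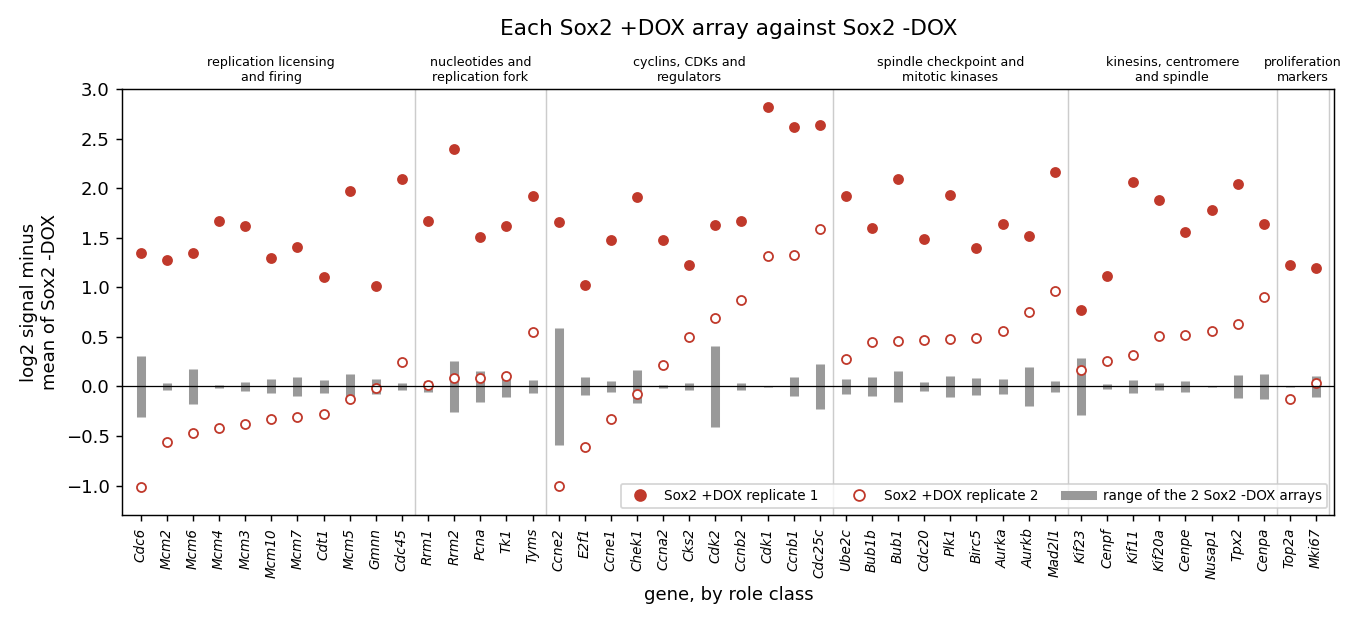
Log2 level of each member on Sox2 +DOX replicate 1 and on Sox2 +DOX replicate 2 relative to the mean of the 2 Sox2 -DOX arrays, by role. Replicate 1 lies above 0 for all 46 members, while on replicate 2 the licensing genes lie mostly below 0 (median -0.33) and the checkpoint and mitotic kinase genes above it (median 0.47).

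Sox2xOct4 +DOX and rtTA +DOX shared a slide. In this comparison 44 of 46 members had higher means in Sox2xOct4 +DOX, with a median change of 0.60 (range -0.53 for Ccne2 to 1.09 for Cenpa), against 0.07 over all genes, of which 53.8% were higher. No member was called by limma or had an unadjusted p under 0.05, where 6.34% of all genes were called and 23.9% had such a p. Both arrays were higher for 4 of 46 members (Mcm10, Pcna, Cks2 and Cenpa), below the 28.7% of all genes, and both were lower for Ccne2 (24.1% of all genes). Sox2xOct4 +DOX replicate 1 was above both rtTA +DOX arrays for 45 members (median 1.38 above their mean), against 40.7% of all genes, and Ccne2 was below both. Replicate 2 was above both for 4 members, against 47.4% of all genes, and below both for 12, against 33.8% (median -0.14, against 0.15 over all genes). Without Sox2xOct4 +DOX replicate 1 the median change was therefore -0.14, and without replicate 2 it was 1.38. Leaving out rtTA +DOX replicate 1 gave 0.19 and leaving out rtTA +DOX replicate 2 gave 1.01.

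The difference between the Sox2 response within TetON-Sox2 mice and the response of Sox2xOct4 +DOX against rtTA +DOX was tested as a contrast in limma. Its median over the members was 0.43, with 36 of 46 above 0, and no member was called or had an unadjusted p under 0.05, where 0.168% of all genes were called and 9.6% had such a p. The 10 members below 0 were Mcm2, Mcm3, Mcm4, Mcm6, Mcm7, Mcm10, Cdc6, Cdt1, E2f1 and Chek1. The largest difference was that of Cdc25c, 1.45 ± 0.91 (limma adjusted p = 0.685). Without single arrays the median ran from -0.31 to 1.18: it was -0.31 without Sox2xOct4 +DOX replicate 2 and -0.20 without Sox2 +DOX replicate 1.

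**Figure D4:**
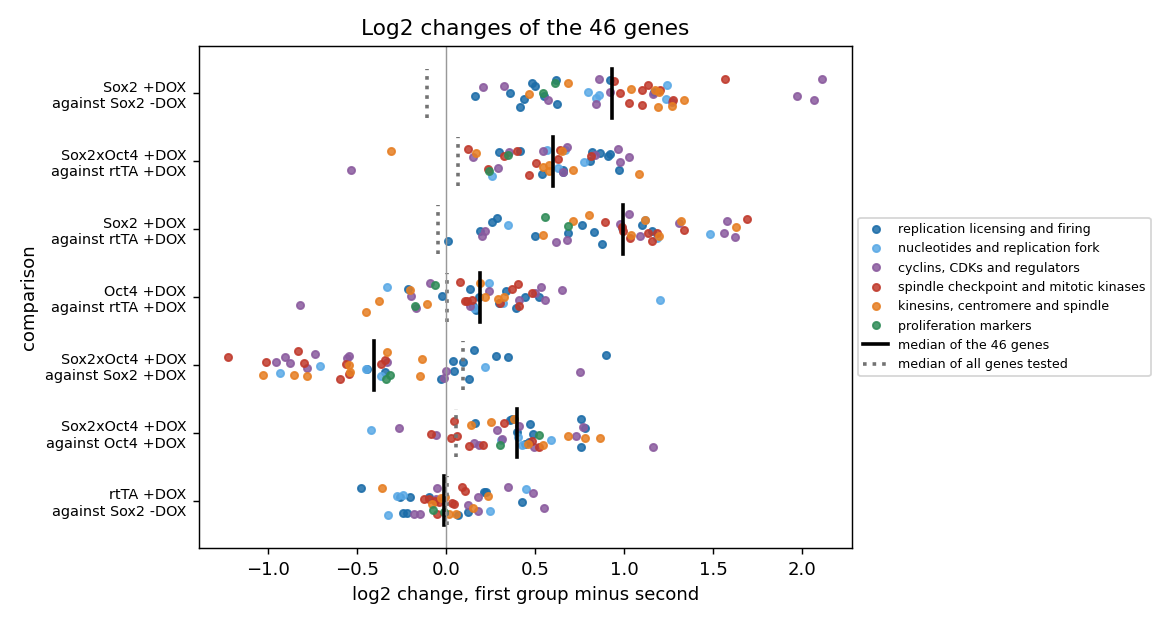
Log2 change of each of the 46 members (points) in each comparison, with the median over the members and the median over all genes tested. The members' median was 0.93 in Sox2 +DOX against Sox2 -DOX, 0.60 in Sox2xOct4 +DOX against rtTA +DOX and 0.19 in Oct4 +DOX against rtTA +DOX, against all-gene medians between -0.10 and 0.10.

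The other comparisons share arrays with those above and are not independent of them. Sox2 +DOX against rtTA +DOX, across slides, had higher means for all 46 members, against 47.9% of all genes (median 0.99, range 0.01 for Mcm6 to 1.69 for Mad2l1). No member was called by limma, where 8.37% of all genes were, and 5 had an unadjusted p under 0.05: Cenpa, Mad2l1, Ccnb1, Cdc25c and Cdk2, a share near the 12.1% of all genes that were higher at that level. Cenpa had a change of 1.63 ± 0.48 (limma adjusted p = 0.073) and Mad2l1 one of 1.69 ± 0.60 (limma adjusted p = 0.111). Both Sox2 +DOX arrays were above both rtTA +DOX arrays for 16 of 46 members, against 29.4% of all genes, and none of the 16 was a licensing gene; for no member were both below, against 33.6%. Under 3 other settings 1 member was called here, Cdk2 or Cenpa.

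In Oct4 +DOX against rtTA +DOX, across slides, 33 of 46 members had higher means, against 50.6% of all genes, with a median change of 0.19. None was called by limma or had an unadjusted p under 0.05, where 1.01% of all genes were called and 13.3% had such a p. Oct4 +DOX replicate 1 was above both rtTA +DOX arrays for 39 members (median 0.77), against 37.5% of all genes. Replicate 2 was above both for 2 members, against 38.6% of all genes, and below both for 18, a share near the 39.3% of all genes (median -0.33). Rrm2 read 1.97 and 1.03 in Oct4 +DOX, against 0.28 and 0.32 in rtTA +DOX. It had the largest change of the members, 1.20 ± 0.87 (limma adjusted p = 0.620), and with Ccne1 it was the member whose Oct4 +DOX arrays both lay above the controls, while Ccne2 and Kif23 had both below, which held for 22.8% and 23.5% of all genes. Without Oct4 +DOX replicate 1 the median turned to -0.33, and without rtTA +DOX replicate 1 to -0.22.

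Sox2xOct4 +DOX set against the single transgenes gave changes in both directions. Against Sox2 +DOX, 11 of 46 members had higher means (55.8% of all genes did) and the median was -0.40. None was called by limma (2.6% of all genes were) or had an unadjusted p under 0.05 (19.8% did). Mad2l1 and Cenpa had both Sox2xOct4 +DOX arrays below both Sox2 +DOX arrays, as had 19.6% of all genes, and no member had both above, as had 27%. Of the 46 members Mad2l1 had the lowest change, -1.22 ± 0.60 (limma adjusted p = 0.298). Without Sox2 +DOX replicate 1 the median was 0.34 and without Sox2xOct4 +DOX replicate 2 it was 0.37. Against Oct4 +DOX, 42 of 46 had higher means (53% of all genes did) with a median of 0.40, and none was called by limma (4.36% of all genes were) or had an unadjusted p under 0.05 (22.3% did). There Cdt1, Pcna and Cenpa had both Sox2xOct4 +DOX arrays above both Oct4 +DOX arrays, as had 25.1% of all genes, and no member had both below, as had 22.2%. Without Sox2xOct4 +DOX replicate 1 the median was -0.34 and without Oct4 +DOX replicate 2 it was -0.18. The control groups, rtTA +DOX against Sox2 -DOX across slides, differed by a median of -0.01 over the members, 21 of which were higher (50.5% of all genes), with no gene of the 19056 called by limma, no member at an unadjusted p under 0.05 and 5.61% of all genes at that level. Mcm2 had both rtTA +DOX arrays below both Sox2 -DOX arrays, as had 22.7% of all genes, and no member had both above, as had 20.6%. The median was 0.41 without rtTA +DOX replicate 1 and 0.09 without Sox2 -DOX replicate 2.

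Among 40 other replication genes, 38 had higher means in Sox2 +DOX than in Sox2 -DOX (median 0.75) and 15 had both Sox2 +DOX arrays above both Sox2 -DOX arrays. None was called by limma, with 6 higher at an unadjusted p under 0.05. Among 42 other mitotic genes, 40 were higher (median 1.15), 39 had both Sox2 +DOX arrays above both Sox2 -DOX arrays, and none was called, with 6 higher at an unadjusted p under 0.05. Among 23 other genes of cell cycle control, 15 were higher (median 0.50), 8 had both arrays above and 4 both below, and none was called, with 5 higher and 1 lower at an unadjusted p under 0.05. Of all genes 29.8% had both arrays above, 36.6% both below and 11.5% were higher at that p. Replicate 1 was the higher array for 39 of 40 replication, 41 of 42 mitotic and 18 of 23 control genes in Sox2 +DOX. It was so for 40, 42 and 17 of them in Sox2xOct4 +DOX, 38, 41 and 11 in Oct4 +DOX, 3, 0 and 5 in rtTA +DOX, and 13, 12 and 10 in Sox2 -DOX. Cdc7, the kinase that fires origins, was called in Sox2 +DOX against rtTA +DOX: it read 1.24 and 0.52 in Sox2 +DOX, against -2.04 and -1.41 in rtTA +DOX, a rise of 2.61 ± 0.57 (limma adjusted p = 0.032). Sox2 -DOX arrays read -1.41 and -0.84 for Cdc7. It was the 1 replication gene of 40 called there, and E2f4, an E2F of resting cells, was the 1 called of 23 other control genes (1.07 ± 0.25, limma adjusted p = 0.040). Of all genes 8.37% were called there. E2f4 read -1.52 and -1.56 in Sox2 +DOX, against -2.51 and -2.73 in rtTA +DOX. On the Sox2 -DOX arrays, of the same slide as Sox2 +DOX, it read -1.69 and -1.46, so those groups overlapped.

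The 7 inhibitors of cyclin-dependent kinases had higher and lower means. In Sox2 +DOX against Sox2 -DOX 4 had higher and 3 lower means (median 0.18), with 1 called against 7.83% of all genes, and in Sox2xOct4 +DOX against rtTA +DOX 4 were higher and 3 lower (median 0.28), with 2 called against 6.34%. Cdkn1a (p21) read 0.48 and 1.72 in Sox2xOct4 +DOX, against 3.46 and 3.59 in rtTA +DOX, and fell by 2.42 (SE 0.52, limma adjusted p = 0.035). It read 1.23 and 2.55 in Sox2 +DOX, 2.86 and 3.25 in Oct4 +DOX, and 3.77 and 3.42 in Sox2 -DOX. Cdkn2b (p15) read 2.63 and 2.07 in Sox2xOct4 +DOX, against 5.47 and 4.90 in rtTA +DOX, and fell by 2.84 (SE 0.67, limma adjusted p = 0.045). Its levels were 1.70 and 4.12 in Sox2 +DOX and 5.36 and 5.22 in Sox2 -DOX. Both were lower on all arrays of the 2 Sox2-transgene DOX groups than on any control array, and they were the inhibitors called in Sox2xOct4 +DOX against rtTA +DOX. The inhibitor called in Sox2 +DOX against Sox2 -DOX was Cdkn2a (p16 and p19Arf): its probe was not well above background on either Sox2 +DOX array and was at least 2.42-fold lower there (limma adjusted p = 0.012). Cdkn1c (p57), named after its values were seen, ran the other way: it read 1.66 and 1.46 in Sox2 +DOX, against -0.02 and -0.04 in Sox2 -DOX, a difference of 1.59 that limma did not call (adjusted p = 0.137). Of 14 p53 target genes 1 was called in that comparison, against 7.83% of all genes. This was Plk2, which rose by 2.25 on the log2 scale (SE 0.44, limma adjusted p = 0.023) while the list had a median of -0.71 and 10 of 14 genes lower.

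Markers of villus and crypt cells differed between the same arrays. All 9 enterocyte markers had lower means in Sox2 +DOX than in Sox2 -DOX (median -1.43), and 2 were called, where 7.83% of all genes were: Alpi (intestinal alkaline phosphatase, -4.74, limma adjusted p = 0.014) and Fabp1 (a fatty acid carrier, -3.10, limma adjusted p = 0.032). Their summed linear signal, in multiples of each array's 75th percentile, was 204 and 434 in Sox2 +DOX, 350 and 806 in Sox2xOct4 +DOX, 703 and 1013 in Oct4 +DOX, 601 and 1006 in rtTA +DOX, and 913 and 793 in Sox2 -DOX. In the 3 transgenic DOX groups the array with the higher module level, replicate 1, thus had the lower enterocyte sum, while rtTA +DOX replicate 1 was low in both. The 8 crypt stem cell markers summed to 17.0 and 17.7 in Sox2 +DOX, 14.3 and 15.2 in Sox2xOct4 +DOX, 8.73 and 11.9 in Oct4 +DOX, 12.9 and 17.6 in rtTA +DOX, and 12.4 and 13.0 in Sox2 -DOX. In Sox2 +DOX against Sox2 -DOX 6 of these 8 had lower means and 2 higher (median -0.89). Of the 8, 1 was called higher (Cd44, 1.96, limma adjusted p = 0.038) and 1 lower (Ascl2, -1.75, limma adjusted p = 0.041). Cd44 was the largest term of the Sox2 +DOX sums. It read 3.43 and 3.45 there, against 1.19 and 1.77 in Sox2 -DOX.

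Smooth muscle markers, 5 of 5 lower in Sox2 +DOX than in Sox2 -DOX with none called, summed to 32.1 and 24.7 in Sox2 +DOX, 24.98 and 195 in Sox2xOct4 +DOX, 40.8 and 98.6 in Oct4 +DOX, 78.7 and 155 in rtTA +DOX, and 86.5 and 61.2 in Sox2 -DOX. In Sox2xOct4 +DOX and Oct4 +DOX the array with the lower module level had the higher muscle sum, while in Sox2 +DOX and rtTA +DOX that array had the lower muscle sum. The 6 germinal centre B cell markers, a dividing cell type of ileal lymphoid tissue, summed to 4.03 and 3.97 in Sox2 +DOX, 7.11 and 7.28 in Sox2xOct4 +DOX, 11.7 and 13.8 in Oct4 +DOX, 7.14 and 5.94 in rtTA +DOX, and 8.89 and 6.72 in Sox2 -DOX. In Sox2 +DOX against Sox2 -DOX 1 of these 6 was called, Fas, a death receptor, which was lower (-2.08, limma adjusted p = 0.021). Of the 7 T cell markers all had lower means and 1 was called (Cd3d, a chain of the T cell receptor complex, -2.08, limma adjusted p = 0.014). Of all genes 7.83% were called in that comparison. No Paneth (5), goblet (5), B cell (6), erythroid (2) or fibroblast (5) marker was called in that comparison, with 1, 2, 0, 1 and 0 of them at an unadjusted p under 0.05. Of the 19056 genes tested, 2191 were higher and 2979 lower at that p. Of the 6 B cell markers, replicate 1 was the higher array for 6 in Sox2 +DOX, 6 in Sox2xOct4 +DOX and 5 in Oct4 +DOX. It was so for 4 in rtTA +DOX and 6 in Sox2 -DOX. In Sox2xOct4 +DOX against rtTA +DOX 1 marker of all these cell type lists was called, the crypt marker Olfm4 (-3.50, limma adjusted p = 0.042), where 6.34% of all genes were. Every marker of the 4 lists whose sums are given was well above background on at least 1 array of each group. The part of enterocyte, crypt, muscle or B cell content in the module's levels was not tested.

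**Figure D5:**
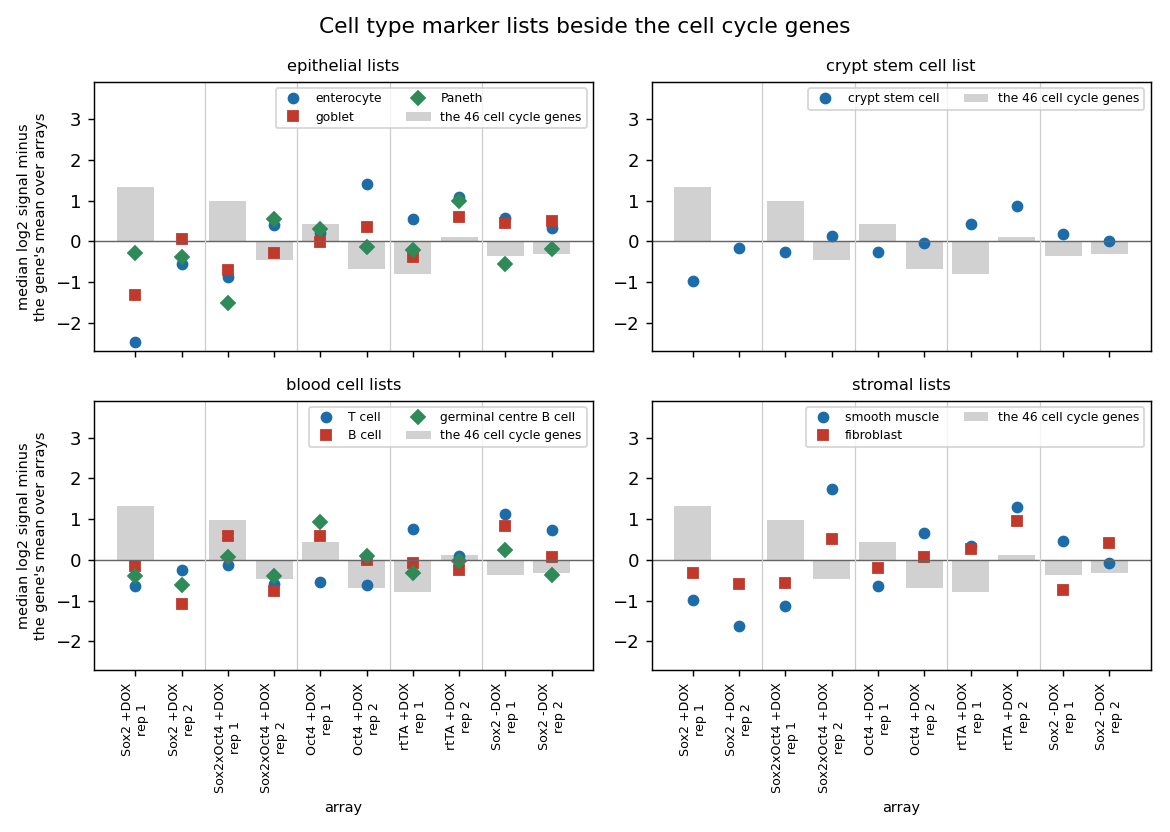
Median centred level (log2) of the module members and of marker lists on each array, with the groups from left to right in the order Sox2 +DOX, Sox2xOct4 +DOX, Oct4 +DOX, rtTA +DOX and Sox2 -DOX. On Sox2 +DOX replicate 1 the module stood at 1.32 and the enterocyte list at -2.47, and on Sox2 +DOX replicate 2 they stood at -0.02 and -0.55.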

How the data were processed

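The members and the gene lists were chosen with earlier results of these data known. Spot intensity is the authors' deposited scanner output, background-subtracted and detrended by Agilent Feature Extraction with no normalization across arrays, per the file headers. These name versions 9.5.3.1, 10.7.1.1 and 10.7.3.1, where the submitters' processing notes name 9.1. Each array's precision is limited by the number of arrays, 2 per group.

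From the intensities, log2 minus each array's 75th percentile was computed, after control spots and outlier spots were left out. A probe was kept if some group had it well above background on both arrays (28761 of 41143), and the probe with the highest mean over the 10 arrays stood for a gene, leaving 19056 genes. RefSeq names were matched for 80.2% of probes. A model with 1 mean per group over all 10 arrays was fitted with limma 3.58.1 in R 4.3.3 (5 residual degrees of freedom), with Benjamini-Hochberg adjustment over all genes; a gene was called at an adjusted p under 0.05. The 7 comparisons and 1 difference of changes share arrays. The fit was tested on simulated data. Summaries and plots used Python 3.11.15, pandas 2.3.3, numpy 2.4.6 and matplotlib 3.10.9.

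Values on every array are given for the 3 members with the highest mean in each role class, for any called member, and, chosen after their values were seen, for the 5 members with an unadjusted p under 0.05 in Sox2 +DOX against Sox2 -DOX and single members at an extreme. Of the other lists (replication, mitosis, cell cycle control, CDK inhibitors, p53 targets, crypt stem cell, enterocyte, Paneth, goblet, T cell, B cell, germinal centre B cell, erythroid, smooth muscle, fibroblast), called genes are named, up to 4 per list, for the comparisons in which a list is described. Calls in the remaining comparisons are not described. Among them were Rgs13 in Oct4 +DOX against rtTA +DOX, Lgr5 and Slc12a2 in Sox2xOct4 +DOX against Oct4 +DOX, and Lct in Sox2 +DOX against rtTA +DOX. Probe positions are those of the files (mm8).

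The authors' deposited normalized table of the TetON-Sox2 arrays holds a linear ratio to an unstated value of each array (column medians 0.163 to 0.201, with 24.6% to 27.8% of values at its floor). Its scale and centring stay unknown, and it was used as an alternative only. The other alternatives were background correction with normexp and an offset of 50, quantile normalization, no filter on dim probes, a floor, every probe, a variance trend, only the arrays compared, the slide or the replicate number as a block, and each array left out.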

Additional observations from a re-analysis of the deposited data

How the results depend on the processing

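The results were repeated 305 times under alternative settings. A median with no test counted as moved only past 0.80 on the log2 scale, the spread (SD) of the arrays' medians, and 12 of 148 repeats of the members' median changed sign within it, 11 of them with 1 array left out and 1 with normexp, in rtTA +DOX against Sox2 -DOX (0.0039). Past the tolerance set for counts, 2 counts moved. Of the members called in Sox2 +DOX against rtTA +DOX, none in the fit as reported, 1 was called with a variance trend (Cenpa, log2 change 1.63, limma adjusted p = 0.0495), 1 with every probe as a feature of its own (Cdk2, 2.81, limma adjusted p = 0.0387) and 1 with the replicate block (Cdk2, 1.31, limma adjusted p = 0.0418). The 2.81 belongs to a further Cdk2 probe, not the probe used. That probe was well above background on 7 arrays and changed by 0.29 in Sox2 +DOX against Sox2 -DOX. The members with both Sox2xOct4 +DOX arrays above both rtTA +DOX arrays were 7 instead of 4 under quantile normalization, with or without normexp. The cause of these changes was not tested.

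The replicate numbers were not taken to pair the arrays, as the labels tie them to no shared litter or day. Over all genes, same-numbered deviations correlated at -0.13 to 0.27 between groups. Whether same-numbered arrays shared a batch is not known. Besides that 1 call, the replicate block left the count of called members at 0 in every other comparison. Slide as a block, in the comparisons within a slide, left it at 0 too.

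With each array left out in turn, no member was called in any comparison. The median kept its sign in Sox2 +DOX against Sox2 -DOX and in Sox2 +DOX against rtTA +DOX, and changed it at least once in each of the other comparisons. The members' median log2 change ran from 0.25 to 1.62 in Sox2 +DOX against Sox2 -DOX, from -0.14 to 1.38 in Sox2xOct4 +DOX against rtTA +DOX, from 0.31 to 1.64 in Sox2 +DOX against rtTA +DOX, from -0.33 to 0.77 in Oct4 +DOX against rtTA +DOX, from -1.07 to 0.37 in Sox2xOct4 +DOX against Sox2 +DOX, from -0.34 to 1.11 in Sox2xOct4 +DOX against Oct4 +DOX, from -0.39 to 0.41 in rtTA +DOX against Sox2 -DOX, and from -0.31 to 1.18 for the difference of changes. Quantile normalization put the median of all genes on Sox2 +DOX replicate 1, relative to Sox2 -DOX, at -0.01 where the reported scaling had -0.14. On Sox2 +DOX replicate 2 the licensing class had medians of -0.29 with normexp, -0.30 with quantile normalization and -0.27 in the authors' deposited table.

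All members were well above background on every array. The median standard error of a member's log2 change was 0.67, against 0.39 over all genes. The part of the spread between the 2 arrays of a group, and of signal, in the lack of calls was not tested.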
